A study of Homo sapiens with 16 samples.

Results

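SH-SY5Y is an established human neuroblastoma cell line, and KO28 and KO11 are 2 clones of it that carry the same genotype label, TRPM2 KO. The comparison of KO28 with KO11 used every library of these clones, 8 of the 16 libraries in the series, with 4 libraries for each clone. Each clone was grown from a single cell after transfection with a Cas9 vector holding a TRPM2 guide RNA and with a donor vector that carries GFP and puromycin resistance, and puromycin selection followed. Libraries of each clone came from untreated cells and from cells given 0.3 µM doxorubicin for 24 h, in 2 replicates each. The text deposited for the whole series gives the dose as 3 µM. The other 8 libraries, from the clones Scr13 and Scr16, received a scrambled guide RNA with the same donor vector and selection, and served here as the nearest like comparison. Each side of the comparison is 1 clone, so the p-values measure the spread between cultures of these clones and not between clones of this genotype in general.

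TRPM2 is a calcium-permeable cation channel of the plasma membrane that opens with oxidative stress. Neuroblastoma arises from sympathoadrenal precursors, and SH-SY5Y cells keep much of the adrenergic program of that lineage. A clone grown from 1 cell can carry its own stable differences in expression, and a second clone edited with the same guide RNA is the usual control for them. The question was how far KO28 and KO11 differ within 1 genotype and 1 cell line.

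The guide RNA is shown because both clones were made with it, with the adjacent NGG motif that Cas9 needs in capitals.

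TRPM2 guide site: gaggaaagctggctcggagcAGG

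The 20 bases of the guide lie on the + strand of GRCh38 at chr21:44353718-44353737, inside the first coding exon of TRPM2 and starting at its coding base 18, and were found in 5 TRPM2 transcripts of GENCODE 29 without a mismatch. With up to 3 mismatches and an NGG motif, the transcripts of 1 other gene, CD48, held a match. Only transcripts were searched, so sites elsewhere in the genome were not analysed here.

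Depth on genes ran from 13611339 to 17771010 reads over the 8 libraries. The median was 16235580.5 reads for KO11 and 15292057 for KO28. Values are normalized CPM, read counts scaled to the size of each library, and a gene with 0 reads may still lie at up to 3 reads, which is between 0.165 and 0.219 normalized CPM in these libraries, counting error alone considered. A chi-square per gene of between 7.79 and 16.9 separated the replicates of each clone and treatment over the whole series, so each library entered as its own sample.

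TRPM2 itself (ENSG00000142185) was read at a low level in both clones. Without treatment it had 1.93 and 2.23 normalized CPM in KO11 and 1.41 and 2.19 in KO28. After doxorubicin it had 1.22 and 1.83 normalized CPM in KO11 and 1.37 and 0.658 in KO28. The clones overlapped, and KO28 was lower by 0.24 on the log2 scale, with a 95% interval from -0.81 to 0.32 (log2 fold change -0.24, standard error 0.28, adjusted p = 0.811 from limma). The 4 untreated Scr libraries held between 0 and 0.118 normalized CPM. At the level of the whole gene, the untreated TRPM2 reads of the libraries labelled TRPM2 KO thus went against the label in both clones. After doxorubicin the Scr libraries held between 0.0594 and 1.33, which overlapped with both clones. Reads were summed over the gene, so where in TRPM2 they lay was not analysed here, and the study's methods describe a deletion at the start of the coding sequence with a frameshift after it. The paper reports a check of its KO cells by RT-PCR and Western blotting. TRPM7, a channel fused to a kinase and the most abundant TRPM channel here, had between 87.1 and 93.1 normalized CPM in KO11 and between 76.0 and 94.6 in KO28 (log2 fold change -0.10, 95% interval -0.27 to 0.08, adjusted p = 0.729 from limma). TRPM4, a channel that calcium activates, lay between 7.35 and 13.9 normalized CPM in KO11 and between 9.39 and 17.5 in KO28 (log2 fold change 0.43, 95% interval 0.08 to 0.78, adjusted p = 0.396 from limma).

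The likeness of KO11 and KO28 libraries differed between the treatments. Over genes with a mean above 1 normalized CPM, the correlation of log2 values between a KO11 and a KO28 library of the same treatment lay between 0.978 and 0.983 without treatment and between 0.985 and 0.990 after doxorubicin. Replicates of 1 clone correlated at between 0.977 and 0.989 without treatment and between 0.974 and 0.989 after doxorubicin, over all 4 clones. Libraries of a TRPM2 KO clone and a Scr clone reached between 0.969 and 0.983, and between 0.959 and 0.976. Scr13 and Scr16 libraries correlated at between 0.987 and 0.989 without treatment and between 0.968 and 0.986 after doxorubicin. Without treatment the ranges of KO and Scr pairs overlapped with that of KO11 and KO28, and after doxorubicin the pairs of KO11 and KO28 lay above all pairs of a KO and a Scr clone. Without treatment the median absolute log2 difference between 2 libraries, taken over genes, had a median of 0.221 over the pairs of KO11 and KO28, above the 0.170 of replicates and the 0.20 of pairs of a KO and a Scr clone, and it was 0.161 for Scr13 and Scr16. After doxorubicin it was 0.172 for KO11 and KO28, 0.187 for replicates, 0.220 for pairs of a KO and a Scr clone and 0.227 for Scr13 and Scr16. Within KO28 alone, replicates differed by 0.216 without treatment and 0.192 after doxorubicin, and within KO11 by 0.143 and 0.168. These correlations run across genes, which are not independent, and are given as a description.

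**Figure D1:**
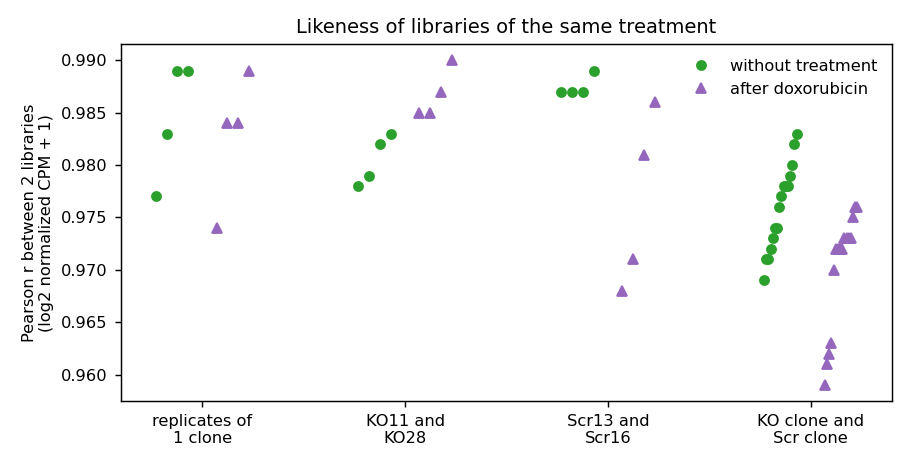
Pearson correlation of log2(normalized CPM + 1) across genes (y axis) between pairs of libraries of the same treatment, by kind of pair (x axis), with circles for untreated cells and triangles for cells after doxorubicin. After doxorubicin the 4 pairs of KO11 and KO28 libraries lie between 0.985 and 0.990, above every pair of a KO and a Scr clone, whose highest value is 0.976.

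With treatment as a block, 20 of the 14513 genes tested differed between the clones at an adjusted p under 0.05, which is 0.138% of them. Higher in KO28 were 17 genes (0.117%) and lower 3 (0.0207%). With DESeq2 in place of limma, 31 genes were higher and 12 lower. A change of at least 2-fold was found for 10 of the 20, all higher in KO28 and all pseudogenes. The test was limma's moderated test on log2(normalized CPM + 1), with Benjamini-Hochberg adjustment over all genes tested. The count moved with single libraries: without untreated replicate 1 and doxorubicin replicate 2 of KO11, each left out alone, it was 7 and 5, and without untreated replicate 1, doxorubicin replicate 1 and doxorubicin replicate 2 of KO28 it was 3, 93 and 8. Of the 93, 55 were higher and 38 lower in KO28, and 27 were pseudogenes of ribosomal protein genes. RPS23P8 and AC007969.1 passed in each of these fits with a library left out. An unadjusted p under 0.05 was found for 1460 genes (10.1%), of which 713 (4.91%) were higher in KO28 and 747 (5.15%) lower. In 450 genes (3.1%) the 4 libraries of KO28 did not overlap with the 4 of KO11, 192 of them (1.32%) with KO28 higher and 258 (1.78%) with KO28 lower, and 15 of the 20 genes called were among them. Over all genes tested the log2 fold change had a median of -0.006. No gene was on in 1 clone and off in the other, counted as at least 1 normalized CPM in all 4 libraries of 1 clone and at most 3 reads in every library of the other. On data simulated for these libraries and genes, with 200 genes changed, the same test recovered 61.5% of genes changed 1.5-fold, 79.5% of those changed 2-fold and 88.5% of those changed 3-fold. Of its calls, 4.65%, 5.92% and 6.84% were false. Each gene was drawn on its own in the simulated data, so differences that many genes of a library share were not in them. The rates hold for such data alone.

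The other pairs of clones were fitted for comparison. Scr16 and Scr13, fitted in the same way, differed in 5 of 14378 genes (0.0348%), all lower in Scr16, and in 1009 genes (7.02%) at an unadjusted p under 0.05, 361 higher (2.51%) and 648 lower (4.51%). With 1 library left out the count for the Scr clones ran from 1 to 32, the latter without untreated replicate 1 of Scr13 and with 14 higher and 18 lower. In fits of the same form KO28 against KO11 ran from 3 to 93, so the ranges overlapped. A TRPM2 KO clone and a Scr clone differed in between 916 and 1217 genes, that is in 6.33% of the genes tested for KO28 and Scr16, 6.83% for KO28 and Scr13, 6.97% for KO11 and Scr16, and 8.41% for KO11 and Scr13. A log2 fold change of at least 1 in size, whether called or not, was found for 23 genes (0.158%) between KO28 and KO11 and for 22 (0.153%) between Scr16 and Scr13. Between 4 and 8 genes were on in 1 clone and off in the other in each direction in the pairs of a KO and a Scr clone, and 0 between Scr16 and Scr13. The pairs of a KO and a Scr clone share clones with each other and were added after the counts of KO28 against KO11 had been seen.

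**Figure D2:**
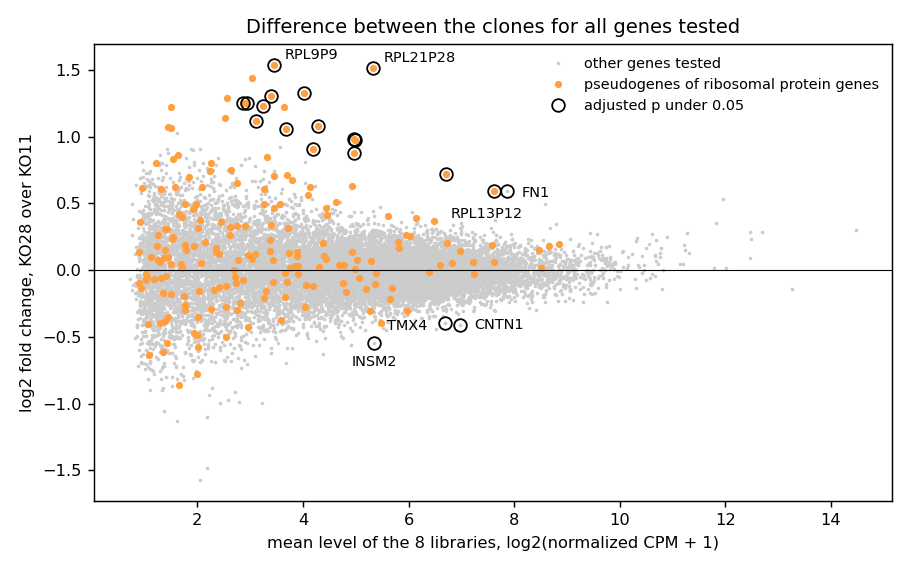
Log2 fold change of KO28 over KO11 (y axis) against the mean level of the 8 libraries as log2(normalized CPM + 1) (x axis) for the 14513 genes tested, with pseudogenes of ribosomal protein genes in orange and the 20 genes past the threshold circled. The circled genes below 0 are INSM2, TMX4 and CNTN1, and the circled genes above 0 are FN1 and 16 pseudogenes.

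Of the 17 genes higher in KO28, 16 are processed pseudogenes, copies of a messenger RNA that were inserted back into the genome and have no introns. By sequence, the closest protein-coding gene of each of the 16 is a ribosomal protein gene. Ribosomal protein genes have many such copies in the genome, and reads of a copy and its parent cannot be told apart where their sequences are identical. Of all 50-base stretches of a copy, the share also found in its parent was 100% for RPL21P16, 79.7% for AC026403.1, 75.6% for RPL21P28, 73.8% for RPL9P9, 70.7% for AC099336.2 and 66.5% for RPS23P8. It was 51.8% for AC007969.1, 47.4% for RPL13P12 and 39.8% for RPL13AP25, between 19.8% and 24.1% for RPS3AP47, AC004453.1 and RPL13AP20, and 10.7% for RPL23AP18, 7.64% for RPL10P3, 1.64% for RPL13P2 and 1.51% for RPS21P4. Copies that share most stretches with the parent, RPL9P9, RPL21P28 and RPS23P8 among them, are uncertain as separate genes, and the share of reads counted on another copy or on the parent was not tested for any of the 16. A stretch of the coding sequence of 2 of the parents is shown beside their pseudogenes because few bases separate these pairs, with the bases that differ in capitals.

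RPS23, coding bases 189 to 278: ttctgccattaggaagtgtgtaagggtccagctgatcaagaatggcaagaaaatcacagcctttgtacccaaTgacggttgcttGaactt

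RPS23P8: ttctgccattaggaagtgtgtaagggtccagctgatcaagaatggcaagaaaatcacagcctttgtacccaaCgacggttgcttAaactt

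RPL21, coding bases 1 to 90: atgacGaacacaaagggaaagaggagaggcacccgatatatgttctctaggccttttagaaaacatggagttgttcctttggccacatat

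RPL21P28: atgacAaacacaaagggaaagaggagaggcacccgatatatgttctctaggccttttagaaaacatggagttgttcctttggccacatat

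Counted from the first coding base of the parent, with the base of the parent first, RPS23P8 differs from RPS23 at C134A, T261C and G273A over 327 coding bases, and RPL21P28 differs from RPL21 at G6A, T134C and C294T over 480. The stretch of RPS23P8 lies on GRCh38 at chrX:70963050-70963139 on the + strand and that of RPL21P28 at chr1:212051917-212052006 on the - strand. RPL21P16, on chromosome 10, has 0 differences from RPL21 over the same 480 coding bases. The sequences are those of GENCODE 29.

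RPS23P8 showed the smallest adjusted p of all genes. Untreated KO11 held 5.18 and 9.82 normalized CPM of it, and KO11 after doxorubicin 12 and 7.12. In KO28 it had 23.1 and 20 normalized CPM without treatment and 20.3 and 24.8 after doxorubicin. All 4 libraries of KO28 lay above the 4 of KO11 and above the 8 Scr libraries, which held between 5.57 and 9.40, and the difference was 2.51-fold (95% interval 1.91 to 3.29, log2 fold change 1.33, standard error 0.19, adjusted p = 0.00299 from limma). RPS23, the parent, which codes for a protein of the small ribosomal subunit, had between 454.7 and 586.2 normalized CPM in KO11 and between 462.7 and 555.6 in KO28. This parent differed by -0.04 on the log2 scale (95% interval -0.21 to 0.12, adjusted p = 0.897 from limma). The reads placed on RPS23P8 came to 1.63% of those placed on RPS23 in KO11 and 4.37% in KO28.

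RPL21P28 had 5.57 and 24.9 normalized CPM in untreated KO11 and 41.5 and 18.8 after doxorubicin. In KO28 it had 50.6 and 50.3 normalized CPM without treatment and 47.7 and 73.7 after doxorubicin. The clones did not overlap, yet the 4 libraries of KO11 spread widely, with a log2 fold change of 1.52 (standard error 0.27). Its adjusted p was 0.0126 from limma, 0.0720 from the quasi-likelihood test and 0.333 from DESeq2. RPL21P16, identical to the coding sequence of RPL21, lay between 14.3 and 27.5 normalized CPM in KO11 and between 28.8 and 49.8 in KO28 (log2 fold change 0.88, standard error 0.16, adjusted p = 0.0195 from limma). RPL21 itself, a gene of the large ribosomal subunit, held between 17.3 and 23.2 normalized CPM in KO11 and between 16.1 and 26.8 in KO28. The reads on RPL21P28 came to 112.9% of those on RPL21 in KO11 and 248.4% in KO28. The difference in RPL21 was 0.13 on the log2 scale (95% interval -0.16 to 0.43, adjusted p = 0.802 from limma).

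RPL9P9, on chromosome 15, had the largest fold change of the genes called and is among the copies that are uncertain as separate genes. It had 2.48 and 5.36 normalized CPM in untreated KO11 and 8.19 and 3.02 after doxorubicin. KO28 held 14.7 and 12.6 normalized CPM of RPL9P9 without treatment and 11.1 and 21.5 after doxorubicin, and the clones did not overlap (2.91-fold, 95% interval 2.03 to 4.16, adjusted p = 0.00661 from limma). RPL13P12, on chromosome 17, was the most abundant of the 16, with 138.5 and 131.0 normalized CPM in untreated KO11 and 168.6 and 185.6 after doxorubicin. Its values in KO28 were 221.2 and 245.4 without treatment and 196.9 and 275.7 after doxorubicin (1.51-fold, 95% interval 1.32 to 1.72, adjusted p = 0.00547 from limma). AC007969.1, a copy of RPS15, lay between 70.8 and 96.6 normalized CPM in KO11 and between 106.1 and 162.0 in KO28 (log2 fold change 0.72, standard error 0.11, adjusted p = 0.00323 from limma).

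**Figure D3:**
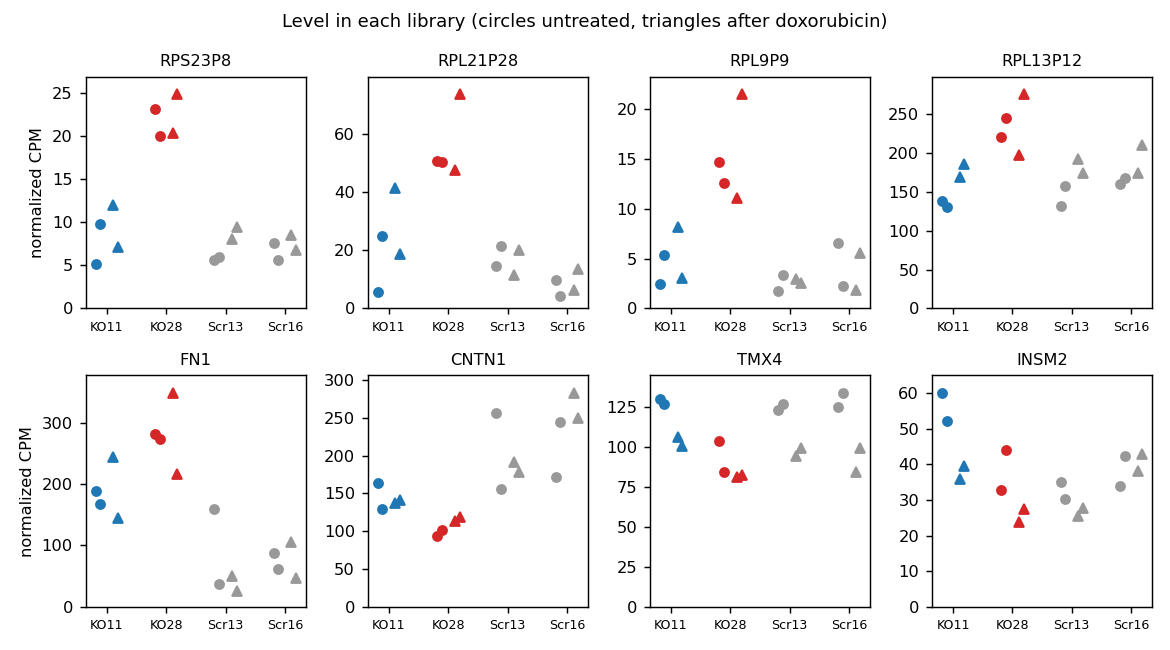
Normalized CPM (y axis, from 0) of 4 pseudogenes and of the 4 protein-coding genes past the threshold in each of the 16 libraries, by clone (x axis), with circles for untreated cells and triangles for cells after doxorubicin. For RPS23P8 the KO28 libraries lie between 20 and 24.8 and all others at 12 or below, while FN1, TMX4 and INSM2 overlap between the clones.

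The other 10 pseudogenes called were AC004453.1, RPS3AP47, AC026403.1, RPL13AP25, RPL23AP18, RPL13AP20, RPL13P2, AC099336.2, RPL10P3 and RPS21P4, with log2 fold changes between 0.91 and 1.31. RPL13AP25 and AC026403.1 overlapped between the clones, and the 14 other pseudogenes called did not. The 16 lie on 13 chromosomes. In 11 of the 16 the 4 libraries of KO28 lay above all 12 other libraries of the series, which 49 of all genes tested did. The 16 were called as higher in KO28, so the like base for the 49 is the 192 genes with KO28 above all of KO11. None of the 13 parent genes passed limma's threshold, 1 had an unadjusted p under 0.05, and the log2 fold change of a parent was at most 0.22 in size, that of RPS15 (adjusted p = 0.379 from limma). Together the 16 pseudogenes took 0.0311% and 0.0367% of the reads in untreated KO11 and 0.0470% and 0.0382% after doxorubicin. In KO28 they took 0.0672% and 0.0687% without treatment and 0.0571% and 0.0841% after doxorubicin, and in the 8 Scr libraries at most 0.0478%. The 16 were chosen by their difference between the clones, so these shares are a description.

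**Figure D4:**
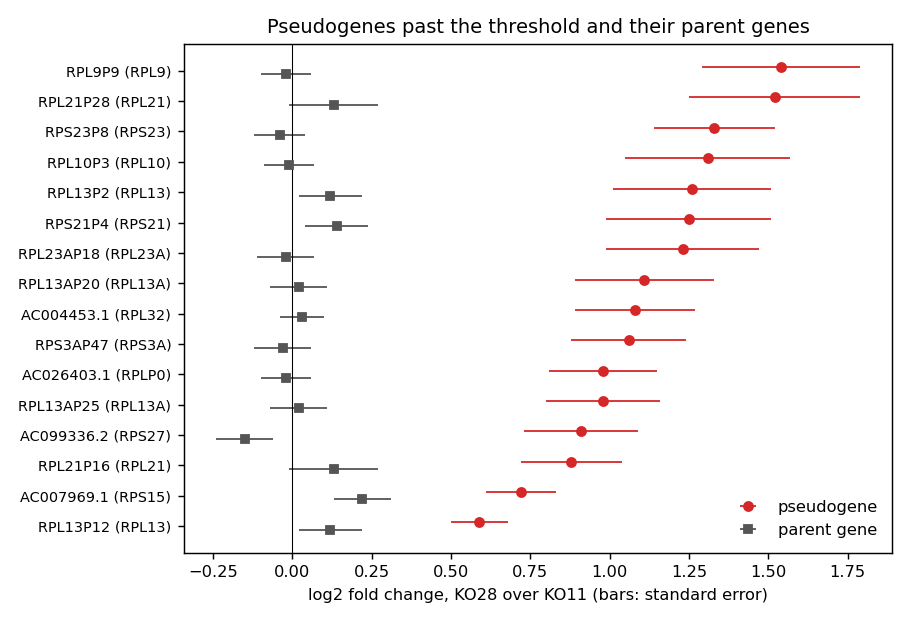
Log2 fold change of KO28 over KO11 (x axis, bars show the standard error) for the 16 pseudogenes past the threshold (red circles) and for the parent gene of each (grey squares, named in brackets on the y axis). The pseudogenes lie between 0.59 and 1.54, and the parents between -0.15 and 0.22.

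Most pseudogenes of this kind did not pass the test. Of 193 tested processed pseudogenes whose closest coding gene is a ribosomal protein gene, 16 were called (8.29%, against 0.138% of all genes), 56 had an unadjusted p under 0.05 with a higher value in KO28 and 8 with a lower one (against 4.91% and 5.15% of all genes), and the median log2 fold change was 0.125. Of 442 other processed pseudogenes tested, 0 were called by limma, 17 were higher and 16 lower at an unadjusted p under 0.05 (against the same 4.91% and 5.15%), and the median was -0.033. The 193 copies took between 0.460% and 0.542% of the reads in KO11 and between 0.494% and 0.626% in KO28, so the totals overlapped. More reads were counted on the copy than on its parent in both clones for 18 of the 193, of which RPL21P28 and RPL21P16 were called. Of the 24 copies with 99% to under 100% identity to the parent, 5 were called, with a median log2 fold change of 0.201. The 10 identical copies had 1 call and a median of 0.02, the 102 with 95% to under 99% identity 5 calls and a median of 0.172, and the 57 below 95% had 5 calls and a median of 0.029. This group was formed after the 16 had been seen, and copies of the same parent share sequence, so these counts are a description.

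Of 78 ribosomal protein genes tested, 0 were called by limma, where 0.138% of all genes were. At an unadjusted p under 0.05, 5 were higher and 1 lower, against 4.91% and 5.15% of all genes, and the median log2 fold change was 0.037. RPL27, of the large subunit, lay between 611.4 and 758.8 normalized CPM in KO11 and between 653.8 and 913.8 in KO28 (log2 fold change 0.27, adjusted p = 0.315 from limma). RPS6, of the small subunit, lay between 822.5 and 1034.1 normalized CPM in KO11 and between 692.7 and 897.6 in KO28 (log2 fold change -0.24, adjusted p = 0.323 from limma).

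Besides the pseudogenes, 4 genes passed the threshold, all protein coding. FN1 (ENSG00000115414, GRCh38 chr2:215360440-215436172, - strand) codes for fibronectin, a glycoprotein of the extracellular matrix. It had 189.0 and 167.3 normalized CPM in untreated KO11 and 281.3 and 272.9 in untreated KO28. After doxorubicin it had 244.4 and 144.7 normalized CPM in KO11 and 349.2 and 217.2 in KO28. Without treatment KO28 lay above KO11, after doxorubicin the clones overlapped, and the difference was 1.51-fold (95% interval 1.27 to 1.79, log2 fold change 0.59, standard error 0.12, adjusted p = 0.0430 from limma). The 8 Scr libraries held between 26.4 and 160.2 normalized CPM of FN1.

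CNTN1 (ENSG00000018236, GRCh38 chr12:40692442-41072418, + strand) codes for contactin 1, a neuronal adhesion protein of the immunoglobulin family. It had 163.7 and 128.8 normalized CPM in untreated KO11 and 137.8 and 141.0 after doxorubicin. In KO28 it had 93.5 and 101.7 normalized CPM without treatment and 113.8 and 119.5 after doxorubicin, below every library of KO11 and of the Scr clones (log2 fold change -0.41, standard error 0.09, adjusted p = 0.0437 from limma). INSM2 (ENSG00000168348, chromosome 14), a zinc finger transcription factor of neuroendocrine cells, had 60.2 and 52.2 normalized CPM in untreated KO11 and 35.9 and 39.6 after doxorubicin. In KO28 it had 32.7 and 44.0 without treatment and 23.9 and 27.6 after doxorubicin (log2 fold change -0.54, standard error 0.11, adjusted p = 0.0430 from limma). TMX4 (ENSG00000125827, chromosome 20), a thioredoxin-related membrane protein of the endoplasmic reticulum, had 129.7 and 126.8 normalized CPM in untreated KO11 and 106.3 and 100.5 after doxorubicin. In KO28 it had 104.0 and 84.1 without treatment and 81.0 and 82.4 after doxorubicin (log2 fold change -0.39, standard error 0.08, adjusted p = 0.0430 from limma). Within each treatment INSM2 and TMX4 were lower in both libraries of KO28 than in both of KO11, and across the treatments the clones overlapped.

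None of these 4 genes passed the threshold with edgeR's quasi-likelihood test on recovered reads, where the adjusted p was 0.0928 for FN1, 0.0899 for CNTN1, 0.0763 for INSM2 and 0.0888 for TMX4. With DESeq2, CNTN1, INSM2 and TMX4 passed and FN1 did not, with an adjusted p of 0.295. In limma's fit of all 16 libraries none of the 4 passed. The adjusted p was then 0.516 for FN1, 0.223 for CNTN1, 0.0795 for INSM2 and 0.0599 for TMX4. With the replicate number as a block, limma's adjusted p was 0.000352 for FN1, 0.0223 for CNTN1, 0.0217 for INSM2 and 0.0223 for TMX4. Leaving out 1 library raised limma's adjusted p to as much as 0.237 for FN1, 0.637 for CNTN1, 0.387 for INSM2 and 0.343 for TMX4. The 10 genes called by the quasi-likelihood test were all among the 16 pseudogenes, and RPL21P28, RPL23AP18, RPL10P3, RPL13AP20, AC099336.2 and RPS21P4 were not called by it. Besides FN1, DESeq2 did not call RPL21P28 and RPL13AP25.

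Without treatment, 2 of the 14513 genes differed between the clones (0.0138%), RPL13P12 and STRA6, both higher in KO28, and 2079 (14.3%) had an unadjusted p under 0.05, 992 higher (6.84%) and 1087 lower (7.49%). STRA6, the cell-surface receptor for retinol binding protein, had 115.0 and 126.8 normalized CPM in untreated KO11 and 175.6 and 193.2 in untreated KO28 (log2 fold change 0.60, adjusted p = 0.0386 from limma). After doxorubicin it had 236.9 and 226.9 normalized CPM in KO11 and 266.8 and 246.6 in KO28, a log2 fold change of 0.14. The change of this difference with doxorubicin was -0.46 on the log2 scale and did not pass the test (adjusted p = 0.872 from limma). After doxorubicin 0 genes were called by limma (0.0%), with 333 (2.29%) at an unadjusted p under 0.05, 168 higher (1.16%) and 165 lower (1.14%). DESeq2 called 165 genes without treatment, 90 higher and 75 lower in KO28, and 0 after doxorubicin with 292 at an unadjusted p under 0.05. The quasi-likelihood test called 0 in both, with 2052 and 306 at an unadjusted p under 0.05. The difference between the clones changed with doxorubicin in 0 genes by limma (0.0%), by DESeq2 and by the quasi-likelihood test, with 748 genes (5.15%) at an unadjusted p under 0.05 in limma, 706 in DESeq2 and 749 in the quasi-likelihood test. Of the 748, the difference moved up with doxorubicin in 353 (2.43%) and down in 395 (2.72%).

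The difference between the clones also varied with base composition. Among the 14288 genes with a GC content, the fifth with the lowest GC content had a median log2 fold change of -0.181 without treatment and the fifth with the highest 0.187. After doxorubicin these medians were -0.034 and 0.021. With GC content and length removed by smoothing, 1 gene was called without treatment and 1249 had an unadjusted p under 0.05. With treatment as a block, 13 genes were then called, all among the 20, of which 11 were pseudogenes of ribosomal protein genes and the others FN1 and INSM2. CNTN1 and TMX4 were then lower in KO28 with log2 fold changes of -0.30 and -0.32, from -0.41 and -0.39, and adjusted p of 0.166 and 0.0545 from limma. The pseudogenes no longer called were RPL13P2, RPL10P3, RPL13AP20, AC099336.2 and RPS21P4. Their log2 fold changes were 1.11, 1.22, 0.99, 0.79 and 1.09, from 1.26, 1.31, 1.11, 0.91 and 1.25 (adjusted p between 0.0527 and 0.116 from limma).

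Of the markers of adrenergic neuroblastoma, HAND2, a transcription factor of the sympathetic lineage, lay between 1280.7 and 1494.4 normalized CPM in KO11 and between 1318.6 and 1547.6 in KO28 (95% interval of the log2 fold change -0.11 to 0.18). DBH, the enzyme that makes noradrenaline, lay between 1439.8 and 1793.0 in KO11 and between 1269.6 and 2140.3 in KO28 (95% interval -0.11 to 0.25). TH, the first enzyme of the same pathway, stayed between 0.192 and 1.13 in KO11 and between 0 and 0.589 in KO28 and was not tested. Of 30 adrenergic genes tested, INSM2 alone was called, where 0.138% of all genes were. At an unadjusted p under 0.05, 1 was higher and 4, INSM2 included, were lower, against 4.91% and 5.15% of all genes, and the median log2 fold change was 0.045. CHGA, a granule protein, held 26.4 normalized CPM in 1 untreated library of KO11 and at most 2.59 in the other 7.

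Defining markers of blood and endothelial cells were low in both clones. Of the blood cell markers analysed, CD79A, CD14, LYZ and ITGAM stayed at or below 1.02 normalized CPM in all 8 libraries. Of 6 endothelial markers, TEK was at 0 in all 8 libraries and VWF, KDR, ESAM and CLDN5 stayed at or below 2.63, whereas ENG, which other cells also express, lay between 62.2 and 101.7. Summed, the 6 had 65.2 and 64.5 in untreated KO11 and 86.0 and 104.3 in untreated KO28. After doxorubicin the sums were 91.2 and 76.1 against 85.3 and 85.9. Of the 3 tested, 0 were called by limma, with 1 higher and 0 lower at an unadjusted p under 0.05 (4.91% and 5.15% of all genes). Their median log2 fold change was 0.277, and 0.533 without treatment. Of the epithelial markers CLDN4, a tight junction protein, was the most abundant and reached 6.04, and of the Schwann cell markers PMP22, a myelin protein, lay between 19.3 and 29.1 while S100B stayed at or below 0.478. The summed level of 11 fibroblast markers lay between 414.4 and 526.0 normalized CPM in KO11 and between 453.7 and 596.7 in KO28, with COL3A1, a fibrillar collagen, the most abundant. COL3A1 lay between 126.3 and 213.8 in KO11 and between 164.8 and 215.1 in KO28 (log2 fold change 0.18, adjusted p = 0.613 from limma). Of these 11 markers, 0 were called by limma, with 3 higher and 0 lower at an unadjusted p under 0.05 (4.91% and 5.15% of all genes), and their part in the difference of FN1 was not tested.

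Of the 45 gene lists examined, 44 had a tested member, and the 4 with a member called were adrenergic neuroblastoma (INSM2), cell adhesion (CNTN1), and collagens and matrix and mesenchymal neuroblastoma (FN1 in both). Among lists with at least 5 tested members, the median log2 fold change lay between -0.096 and 0.236, against -0.006 for all genes. Of 27 collagen and matrix genes, FN1 was called and 5, FN1 included, were higher and 0 lower at an unadjusted p under 0.05, where 0.138% of all genes were called and 4.91% were higher and 5.15% lower. The others were the collagen chains COL6A2, COL1A1 and COL5A1 and the proteoglycan HSPG2, with log2 fold changes of 0.22, 0.53, 0.38 and 0.34 and adjusted p of 0.312, 0.334, 0.368 and 0.464 from limma. Of 25 mesenchymal genes, 4 were higher and 1 lower by the same measure, with a median of 0.115. VIM, the intermediate filament of mesenchymal cells and the most abundant of them, lay between 321.4 and 420.9 normalized CPM in KO11 and between 352.7 and 429.7 in KO28 (adjusted p = 0.679 from limma).

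**Figure D5:**
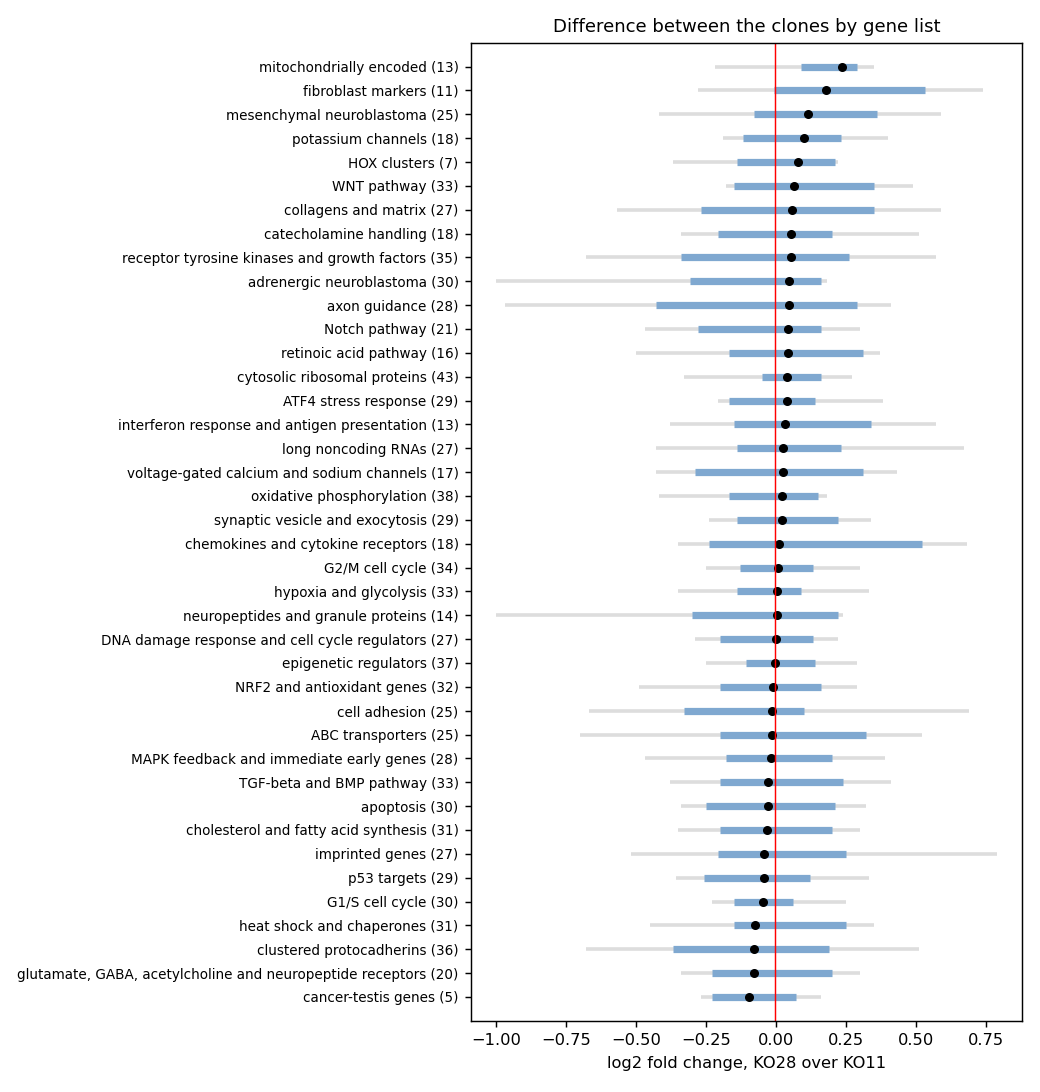
Log2 fold change of KO28 over KO11 (x axis) for the gene lists with at least 5 tested members (y axis, number tested in brackets), with a dot at the median, a blue bar from the 10th to the 90th percentile, a grey bar over the full range and a red line at the median of all genes tested, -0.006. The medians lie between -0.096 and 0.236, and the list at the top is that of the mitochondrially encoded protein genes.

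The 13 mitochondrially encoded protein genes had the highest median of these gene lists, 0.236, and 0 of them were called by limma, with 6 higher and 0 lower at an unadjusted p under 0.05 (against 4.91% and 5.15% of all genes). With the mitochondrial ribosomal and transfer RNA genes, 21 genes were tested, with a median of 0.166, 0 called by limma, and 7 higher and 0 lower at an unadjusted p under 0.05. MT-CO1, a subunit of cytochrome c oxidase and the most abundant of the 13, had 4155 and 4882 normalized CPM in untreated KO11 and 6823 and 5197 in untreated KO28. After doxorubicin it had 9232 and 6046 in KO11 and 9036 and 7792 in KO28, and the clones overlapped (log2 fold change 0.29, adjusted p = 0.464 from limma). Reads on all 32 mitochondrial genes made up 3.87% and 4.84% of untreated KO11 and 6.41% and 5.27% of untreated KO28, and after doxorubicin 8.10% and 5.42% of KO11 and 7.72% and 6.79% of KO28. The part of this share in the other differences was not tested.

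Of all genes 0.138% were called and, at an unadjusted p under 0.05, 4.91% were higher and 5.15% lower. Of 30 G1/S genes 0 were called by limma, with 1 higher and 3 lower at an unadjusted p under 0.05, and of 34 G2/M genes 0, with 2 higher and 1 lower. MKI67, the proliferation marker, lay between 711.8 and 1114.2 normalized CPM in KO11 and between 680.7 and 1076.9 in KO28 (95% interval of the log2 fold change -0.15 to 0.23). E2F1 and FOXM1, transcription factors of the cell cycle named by the study, had log2 fold changes of 0.04 and 0.09 (adjusted p = 0.922 and 0.668 from limma). Of 27 regulators of the DNA damage response and the cell cycle, a list that holds genes named by the study and others, 0 were called by limma, with 1 higher and 2 lower at an unadjusted p under 0.05 and log2 fold changes between -0.29 and 0.22.

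CDKN1A, the p53 target that codes for the cell cycle inhibitor p21, was the most abundant of the p53 targets. It had 124.1 and 122.8 normalized CPM in untreated KO11 and 157.8 and 140.8 in untreated KO28. After doxorubicin it had 787.6 and 738.9 in KO11 and 677.2 and 742.1 in KO28, and the change of the difference was -0.38 on the log2 scale (adjusted p = 0.872 from limma). Of 29 p53 targets, 0 were called by limma, with 2 higher and 7 lower in KO28 at an unadjusted p under 0.05, against 4.91% and 5.15% of all genes. PPM1D, a phosphatase that acts back on p53, had 78.5 and 77.5 normalized CPM in untreated KO11 and 60.4 and 64.1 in untreated KO28. After doxorubicin it had 168.3 and 163.9 in KO11 and 143.2 and 132.4 in KO28 (log2 fold change -0.29, adjusted p = 0.151 from limma and 0.0449 from DESeq2). RRM2B, the p53-induced subunit of ribonucleotide reductase, and MDM2, the ligase that degrades p53, had log2 fold changes of -0.36 and -0.18 (adjusted p = 0.206 and 0.384 from limma).

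Several other genes came near the threshold of limma and did not pass it, and are named here after their values were seen. SCN9A, a voltage-gated sodium channel, had 69.9 and 70.6 normalized CPM in untreated KO11 and 48.3 and 46.0 in untreated KO28, and 91.1 and 77.3 against 77.1 and 64.7 after doxorubicin (log2 fold change -0.40, adjusted p = 0.119 from limma). ROBO2, an axon guidance receptor for SLIT proteins, lay between 11.8 and 17.7 normalized CPM in KO11 and between 6.94 and 10.6 in KO28 without overlap (log2 fold change -0.69, adjusted p = 0.127 from limma). MDK, the growth factor midkine, lay between 309.9 and 468.7 in KO11 and between 449.4 and 576.6 in KO28 (log2 fold change 0.34, adjusted p = 0.118 from limma). SOX11, a transcription factor of immature neurons, had 511.3 and 475.3 normalized CPM in untreated KO11 and 345.3 and 376.6 in untreated KO28, and 263.5 and 262.8 against 252.6 and 221.4 after doxorubicin (log2 fold change -0.30, adjusted p = 0.146 from limma). Of 28 axon guidance genes tested, 0 were called by limma, with 4 higher and 5 lower at an unadjusted p under 0.05 (4.91% and 5.15% of all genes). With DESeq2 ROBO2, MDK and SCN9A passed, with adjusted p of 0.0148, 0.0228 and 0.0459, and SOX11 had 0.0523.

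The median log2 fold change per chromosome, mitochondrial genome apart, lay between -0.048 on chromosome 4 and 0.063 on chromosome 19. These are also the chromosomes with the lowest and the highest median GC content, 43.0% and 57.9%, chromosome 13 sharing the 43.0%. Of 1324 windows of 50 neighbouring tested genes, the lowest median was -0.142, on GRCh38 chr12:12357079-26299290. The highest was 0.336, on chr6:26043277-27872315, the main cluster of histone genes, where 0 genes were called and Scr16 against Scr13 had a median of 0.26. Histone cluster genes, whose messenger RNA mostly lacks a poly(A) tail, had a median of 0.461 over 52 tested genes between KO28 and KO11 (0 called by limma, 18 higher and 0 lower at an unadjusted p under 0.05, against 4.91% and 5.15% of all genes) and of 0.399 between Scr16 and Scr13. They took between 0.0203% and 0.0300% of the reads in KO11 and between 0.0244% and 0.0434% in KO28.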

How the data were processed

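Poly(A) RNA from SH-SY5Y clones was sequenced with a directional kit. Per the labels and the submitters' processing notes, the authors used bcl2fastq, HISAT2 2.1.0 on GRCh38, HTSeq and edgeR. The annotation release, the strand setting and the treatment of reads with several matches are not given in the sources used here. The authors deposited normalized CPM (a signal per gene, scaled by library size and a normalization factor) in 1 table for untreated and 1 for doxorubicin cells, 26410 genes in all. Whether the tables were normalized together is not given, so the main fits compared clones within treatments. Counts of genes without overlap, or with KO28 above all other libraries, set values of both tables side by side and rest on their scaling being alike. The authors' fold changes, p-values, q-values and rankings in these tables were not used, and 0 columns of sample values were left over. Whole reads could be recovered for 100% of the values (largest deviation from a whole number 8.00e-05 reads), which served edgeR 4.0.16, DESeq2 1.42.0 and voom as alternatives.

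Clones were compared with limma 3.58.1 (R 4.3.3) on log2(normalized CPM + 1), treatment as a block, keeping genes that reached 1 normalized CPM in 4 or more of the 8 libraries, with Benjamini-Hochberg adjustment, a threshold of 0.05 and 95% intervals. Fold changes are on the log2(value + 1) scale, which understates those of low genes. The 2 libraries of each clone and treatment are called biological replicates by the study. The fit was tested on simulated data. Parents of pseudogenes were found with BLAST+ 2.17.0 in GENCODE 29, which held 95.9% of the identifiers. The rule for named genes took TRPM channels, genes past the threshold, the most abundant member of each list and the windows of 50 genes with the highest and lowest medians, and not all of these are printed. Markers and list members with an unadjusted p under 0.05 were added after their values were seen. Of 1360 list entries 1217 matched. Members and lists were chosen with earlier results of these data known.

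Alternatives were another pseudocount, filter, scaling, tool, fold limit, a fit of all 16 libraries, no treatment term, a replicate block and each library left out, where a clone left with 1 library in a treatment was assumed to vary like the others. Removal of GC content and length (lowess, span 0.3) and the counts for pseudogene and histone groups were added after seeing the data.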

Additional observations from a re-analysis of the deposited data

Results flagged for a closer look

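RBL2, a relative of the retinoblastoma protein, was lower in untreated KO28 (73.1 and 78.0 normalized CPM) than in KO11 (79.5 and 84.1) and higher after doxorubicin (91.0 and 93.9 against 89.6 and 84.6), a change of the difference of 0.20 on the log2 scale that did not pass limma's test (adjusted p = 0.897). MYBL2, a transcription factor of dividing cells, was higher in untreated KO28 (370.9 and 378.1 against 330.8 and 345.4) and lower after doxorubicin (232.0 and 232.0 against 234.0 and 234.3), a change of -0.16 (adjusted p = 0.899 from limma). With 2 libraries per clone and treatment, single outlying libraries were not tested for.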

How the results depend on the processing

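Each of the 20 genes kept its direction in every fit. The fits reuse the libraries by which the 20 were chosen, so this is a description. Of KO28 against KO11 with treatment as a block, 20 genes passed with limma, against 10 with at least a 2-fold change, 0 without a filter on low values (1895 at an unadjusted p under 0.05), 10 with a pseudocount of 0.1, 10 with edgeR's quasi-likelihood test, 43 with DESeq2 (17 of the 20 among them), 12 with voom (11 of the 20), 9 with all 16 libraries (8 of the 20), 0 without the treatment term (619 at an unadjusted p under 0.05) and 13 with GC content and length removed. Left-out libraries gave between 3 and 93. Untreated, the count of 2 became 0 with the 2-fold limit, without a filter, with a pseudocount of 0.1 or with the quasi-likelihood test, 165 with DESeq2, 1 with GC content and length removed, and between 0 and 49 with a library left out (49 without untreated replicate 1 of KO28, 2 without untreated replicate 1 of KO11, and moved by over 1.5 times without any of the others). After doxorubicin, from 0, left-out libraries gave between 0 and 2 (2 without doxorubicin replicate 1 of either clone), and for the change with doxorubicin, from 0, between 0 and 3 (3 without doxorubicin replicate 1 of KO11). For Scr16 against Scr13 the count of 5 became 3 with the 2-fold limit, 0 without a filter, 2 with a pseudocount of 0.1, with the quasi-likelihood test or with all 16 libraries, 1 with DESeq2 or without the treatment term, and between 1 and 32 with a library left out (32 without untreated replicate 1 of Scr13, 8 without untreated replicate 1 and 1 without doxorubicin replicate 2 of Scr16). The causes were not tested. With the replicate number as a block, 25 genes passed with treatment as a block (20 shared), 72 untreated, 1 after doxorubicin, 4 for the change with doxorubicin and 7 for the Scr clones. The deviations of KO11 and KO28 libraries with the same number correlated at 0.02 untreated and 0.13 after doxorubicin. Those of the treatments of KO11 correlated at -0.04. After doxorubicin, ribosomal protein genes took 4.31% of the reads in replicate 1 of KO11 and 4.32% in that of KO28. In replicate 2 they took 5.38% and 5.30%. Without treatment they took 4.65% and 4.79% in replicate 1, and 4.44% and 4.90% in replicate 2. Whether samples with the same number share more than the number was not tested. Depth limited low genes, since 3 reads are up to 0.219 normalized CPM in these 8 libraries.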
